A study of Mus musculus with 6 samples.

Results

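The response of wild-type mouse colon to the hapten trinitrobenzenesulfonic acid (TNBS) was read as the difference between 2 pools of colonic mucosa: wild-type mice (WT) given TNBS in 50% ethanol by enema, labelled 250 mg without the quantity it refers to, and WT mice given the 50% ethanol enema alone, both taken on day 2. Each pool held RNA of 5 FVB/N6 mice aged 8 weeks and was measured on 1 Illumina bead array, so each value is a single reading with no replicate and no test. Genes counted as members when a probe was above background (detection score of 0.99 or more) on at least 1 of the 2 arrays, which gave 7486 of the 17706 genes named on the array and of the 8935 detected in any of the series' 6 pools. Of these, 6880 were detected in both pools, 178 in the TNBS pool alone and 428 in the ethanol pool alone. The other pools were WT mice left untreated and Foxo4 knockout (KO) mice, each again a pool of 5, given TNBS in 50% ethanol, 50% ethanol or nothing. The probe of Foxo4 stayed below background in all 6 pools, and the genotype labels were therefore not checked by it.

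TNBS binds to proteins of the colon wall and makes them targets of the immune system, and ethanol is needed to breach the mucus and epithelium so that the hapten can reach them. Ethanol alone injures the surface epithelium, which is why the vehicle pool is the control for TNBS. In this model the early injury is known for recruitment of neutrophils and macrophages, release of cytokines such as interleukin 1 beta, and later repair by epithelium and stroma. In pooled bulk tissue, fewer cells of a type and less RNA per cell cannot be told apart.

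Both arrays of the pair were of like quality, with 11156 probes detected in the WT TNBS pool and 11861 in the WT ethanol pool, mean signals of 228 and 217, and a correlation of log2 levels of 0.986. The KO TNBS array stood apart, with correlations of 0.949 to 0.970 against the other arrays, where all other pairs lay between 0.974 and 0.986. Levels below are log2 normalized signals, a difference of 1 is 2-fold, and differences are TNBS minus ethanol. Colonic markers were bright in all 3 WT pools: the chloride exchanger Slc26a3 of the colonocyte surface read 12.78 in the WT TNBS, 12.85 in the WT ethanol and 13.21 in the WT untreated pool, and Muc2, the gel-forming mucin of goblet cells, read 14.83, 14.77 and 14.83 in the same pools. The WT TNBS pool also carried transcripts of small intestine, muscle and fat, described below, whose part in the other differences was not tested. With 1 pool a side, no value could be given without that pool. Xist, the RNA of the inactive X chromosome of female cells, was not above background in the WT TNBS (5.51) and WT ethanol pools (5.64) and read 9.85 in the WT untreated pool, so the 2 enema pools were alike in Xist and the untreated pool was not.

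Most genes differed little between the pools, and the genes that stood far apart stood higher after TNBS. The median difference over all members was −0.01, with 3562 genes higher, 3906 lower and 18 equal, and the 1st and 99th percentiles stood at −0.64 and 1.13. Counted on measured levels, 95 genes (1.27% of members) stood at least 2-fold above their ethanol level and 10 genes (0.134%) at least 2-fold below it. At 1.5-fold the counts were 225 higher (3.01%) and 104 lower (1.39%), and at 4-fold 17 higher and 0 lower. Of the 95 higher genes, 43 were below background in the ethanol pool, and their folds are lower bounds, computed against the higher of the probe's own level and the lowest detected level of that array. Another detected probe existed for 13 of the 95 genes and went the same way for 12 of them. Such a probe had to be above background on only 1 of the 2 arrays. For several genes it passed in the TNBS pool alone, which all but fixes its direction, so this agreement is in part set by the filter. Genes at the edge of the detection rule had a median close to that of genes beyond it. The 748 members with scores just inside had a median of −0.03, ranged from −1.34 to 1.39, and held 9 genes at least 2-fold apart. The 738 genes just outside had a median of 0.06, ranged from −0.90 to 1.34, and held 2 such genes.

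**Figure D1:**
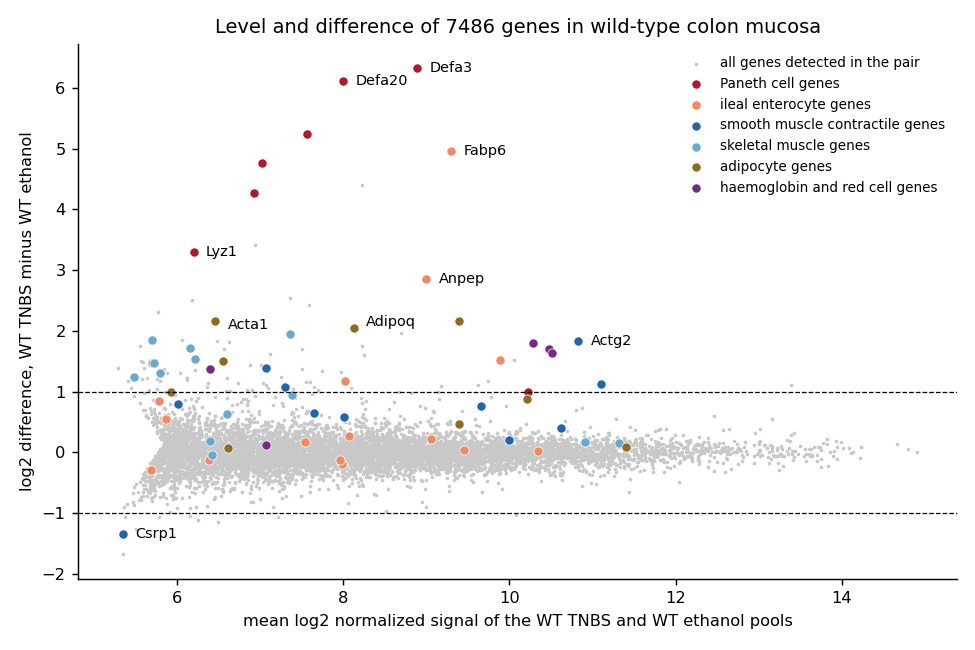
Log2 difference of WT TNBS minus WT ethanol (vertical axis) against the mean log2 level of both pools (horizontal axis), with 1 grey point for each of the 7486 genes, members of 6 gene lists in colour, and dashed lines at 2-fold. Paneth cell genes lie at the top, up to Defa3, while most genes lie near 0 at every level.

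The largest differences were those of Paneth cell genes. Paneth cells sit at the base of small-intestinal crypts and secrete antimicrobial peptides, among them the alpha-defensins, and are not a normal cell type of mouse colon. Of 16 Paneth cell genes listed, 9 were on the array and 7 were members, 6 of them through the TNBS pool alone, which fixes their direction. Defa22 and Mmp7, the protease that activates alpha-defensins, were not above background in either WT enema pool. The alpha-defensin Defa3 read 12.05 in the WT TNBS pool, 5.73 in the WT ethanol pool and 5.20 in the WT untreated pool. Its level after TNBS was at least 77.8-fold higher than after ethanol. Defa20 read 11.05, 4.94 and 4.78 in these pools, at least 38.9-fold higher after TNBS. Both defensins were above background in the TNBS pool alone of the 3 WT pools. Defa31 was at least 21.4-fold higher, Defa23 at least 12.5-fold and Defa24 at least 9.82-fold. A second probe of Defa31 was apart by 4.70 on measured log2 levels, with its ethanol level below background, so that value is not exact. Lyz1, the Paneth cell lysozyme, read 7.85 after TNBS, 4.55 after ethanol and 5.22 in untreated WT mice, at least 4.22-fold higher after TNBS. Pla2g2a, a secreted phospholipase that kills bacteria, was the Paneth cell gene detected in both pools and differed least, with 10.73 in the WT TNBS, 9.73 in the WT ethanol and 6.83 in the WT untreated pool. Alpha-defensin genes are near-identical copies, so a probe may read several of them and the split between named members is uncertain.

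The defensin genes that stood together share upstream sequence. Defa20 and Defa31 are shown because both were among the 3 highest genes and have an entry among the RefSeq promoters (GRCm38.p6, 250 bases before to 50 after the start). Defa20 lies at chr8:21509008-21509307 on the + strand and Defa31 at chr8:21191323-21191622 on the + strand. Capitals mark CTTTGAT on either strand (ATCAAAG as printed), the core of the site of TCF factors, through which Wnt signalling acts in Paneth cells.
Defa20: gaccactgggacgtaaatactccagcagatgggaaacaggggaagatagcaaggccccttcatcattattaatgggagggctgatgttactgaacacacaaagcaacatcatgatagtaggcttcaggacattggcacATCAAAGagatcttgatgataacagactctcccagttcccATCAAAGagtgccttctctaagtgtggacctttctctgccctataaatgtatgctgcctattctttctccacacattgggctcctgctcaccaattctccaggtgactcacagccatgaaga
Defa31: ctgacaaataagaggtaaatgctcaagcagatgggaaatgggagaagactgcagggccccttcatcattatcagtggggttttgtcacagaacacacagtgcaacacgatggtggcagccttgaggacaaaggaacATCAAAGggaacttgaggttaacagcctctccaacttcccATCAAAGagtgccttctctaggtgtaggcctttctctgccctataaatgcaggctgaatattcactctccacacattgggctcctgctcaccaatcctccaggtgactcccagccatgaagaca
Both windows held the motif 2 times, at positions 139 and 179 of Defa20 and 137 and 177 of Defa31, counted from the 5′ end. Over an alignment the windows were 80.9% identical, and the Defa23 window was identical to that of Defa31. Among all 32851 promoters the motif was in 3.73%, and in 0.1% it stood 2 times or more, against 13 and 9 of 16 alpha-defensin promoters, which share descent and are no independent cases. A match describes the letters in the window and shows no binding.

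Genes of small-intestinal absorptive cells followed the Paneth cell genes in size, but as single genes rather than as a whole list. Fabp6, the bile acid binding protein of the ileum, read 11.78 in the WT TNBS pool, 6.81 in the WT ethanol pool and 6.12 in the WT untreated pool, a difference of 4.97. Anpep, the aminopeptidase of the brush border, read 10.42, 7.58 and 6.56 in these pools, a difference of 2.85. In both genes the TNBS pool was the highest of the WT pools and the untreated pool the lowest. Apoa1, the main protein of high-density lipoprotein, was higher by 1.51, the sterol transporter Abcg5 by 1.17, and Mttp, which loads lipid onto apolipoprotein B, was at least 1.58-fold higher. Of 24 ileal enterocyte genes 22 were on the array and 16 were members, 3 through the TNBS pool alone. The list's median was 0.24 (0.19 over those detected in both pools) beside −0.01 over all genes. Of the 16, 12 were higher and 4 lower, and 5 were at least 2-fold higher, beside 1.27% of all genes. Of the other 11 members, the cholesterol transporter Npc1l1, chosen after its values were seen, was above background in the TNBS pool alone, at 6.21, against 5.36 in the WT ethanol pool, and was at least 1.36-fold higher. The glucose transporter Slc5a1 read 9.46 after TNBS and 9.44 after ethanol, and the peptidase Xpnpep2 10.35 and 10.33. Slc10a2, the ileal bile acid transporter, and the fatty acid binding proteins Fabp1 and Fabp2 were not above background in either pool.

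Several more of the 20 highest genes are known from absorptive epithelium. Lgals2, the lectin galectin 2, read 10.42 in the WT TNBS, 6.02 in the WT ethanol and 5.85 in the WT untreated pool, a difference of 4.40. Slc7a9, a subunit of the cystine transporter, was higher by 1.96, the peptidase Naaladl1 at least 2.24-fold and the anion exchanger Slc26a6 at least 2.31-fold. Ccl25, the chemokine that draws lymphocytes to the small intestine, read 7.42 after TNBS and 5.72 after ethanol, where it was below background, and was at least 3.13-fold higher. Chosen after their values were seen, the urea cycle enzyme Cps1 was higher by 1.60, and Mogat2, which rebuilds triglyceride in enterocytes, Treh, the trehalose-splitting enzyme of the brush border, and the scaffold Pdzk1 were at least 1.46-fold, 1.70-fold and 1.89-fold higher. Cyp2e1, the ethanol-oxidising cytochrome P450, read 8.65 in the WT TNBS pool, 5.23 in the WT ethanol pool and 5.43 in the WT untreated pool, at least 7.34-fold higher after TNBS. On these levels it was below background in both of the other WT pools, including the one given ethanol alone. Its second probe was apart by 2.16 on measured levels, with the ethanol level below background, so that value is not exact.

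**Figure D2:**
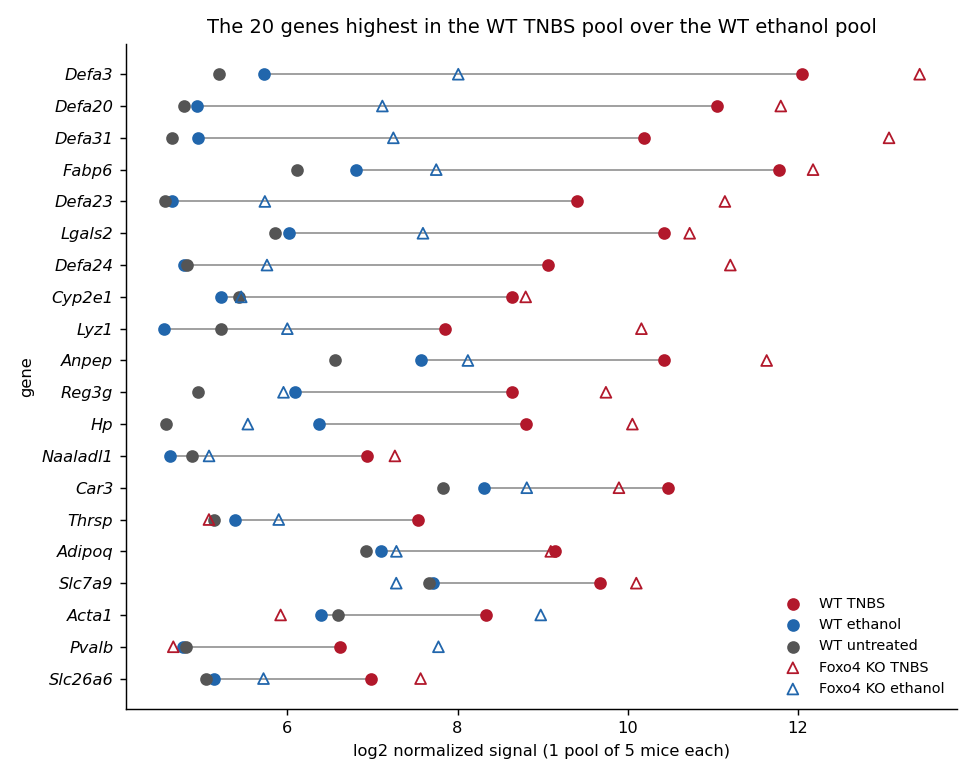
Log2 normalized signal (horizontal axis) of the 20 genes with the largest difference of WT TNBS minus WT ethanol (rows), with 1 point for each pool of 5 mice: filled circles are WT pools and open triangles the Foxo4 KO TNBS and KO ethanol pools. The KO untreated pool is not drawn. For Defa3 the WT TNBS pool reads 12.05 and the WT ethanol pool 5.73, and the line joins these 2 pools in each row. Acta1 and Pvalb are highest in the Foxo4 KO ethanol pool.

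Genes of the colon's own epithelium differed little. Of 19 detected surface colonocyte genes 8 were higher and 11 lower (median −0.01), 0 of them 2-fold apart. The water channel Aqp8 read 11.67 in the WT TNBS, 11.82 in the WT ethanol and 12.48 in the WT untreated pool, and the carbonic anhydrase Car4 11.08, 10.99 and 11.74. Both were close in the enema pools and highest in the untreated pool (Aqp8, Car4, Slc26a3 and Muc2 were chosen after their values were seen). The members furthest from 0 were the phosphate transporter Slc20a1, at 0.71 with a second probe at 0.29, the sodium-proton exchanger Slc9a3, at −0.56, the water channel Aqp4, at 0.55 with its other probes between −0.01 and 0.26, and the carbonic anhydrase Car2, at −0.51. Scnn1g, a subunit of the epithelial sodium channel, read 8.03 in the WT TNBS and 8.99 in the WT ethanol pool, a difference of −0.96, and Scnn1b had a difference of −0.43. The 19 goblet cell genes had a median of 0.07, the 21 junction genes 0.05, and the 10 stem cell and Wnt target genes −0.07, with 0 genes of these lists 2-fold apart, beside the shares of all genes just given. Of 22 genes of wound repair 17 were higher and 5 lower (median 0.11), led by Clu, a secreted chaperone of regenerating crypts, with 10.81 after TNBS and 9.29 after ethanol.

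Most neutrophil and cytokine genes on the array were below background in both WT enema pools, as were most genes of the whole array. Of all 17706 genes on the array, 7486 were above background in at least 1 of the 2 pools. Of 21 neutrophil markers on the array 15 were not above background in either pool, and of 25 inflammatory cytokines 22 were not, including the cytokines Tnf, Il6, Il17a and Ifng. S100a8, a subunit of calprotectin, which fills the cytosol of neutrophils, read 7.98 in the WT TNBS pool, 7.67 in the WT ethanol pool and 4.43 in the WT untreated pool. Its partner S100a9 read 6.45, 5.51 and 4.59, above background after TNBS alone and at least 1.60-fold higher there than after ethanol. Il1b, the interleukin 1 beta gene, read 7.05, 6.16 and 4.81, a difference of 0.89. For S100a8 the 2 enema pools were close together and far above the untreated pool. Lcn2, which withholds iron from bacteria, went the other way, with 5.91 after TNBS, 6.50 after ethanol and 4.58 in untreated mice, at least 1.51-fold lower after TNBS. The 6 detected neutrophil markers had a median of 0.35, but 3 of them were detected in the TNBS pool alone and 1 in the ethanol pool alone, and the 2 detected in both had a median of 0.10. Of 32 chemokines 13 were detected, 11 higher and 2 lower (median 0.24). The only 1 at least 2-fold higher was Ccl25, described above with the small-intestinal genes. The neutrophil attractant Cxcl1 was higher by 0.44 and the macrophage product Ccl4 by 0.60. Of 21 monocyte and macrophage markers on the array 11 were not above background in either pool. All 10 detected ones were higher (median 0.39, or 0.35 over the 9 detected in both pools), 1 of them at least 1.5-fold. Their summed level was 13.86 in the WT TNBS, 13.76 in the WT ethanol and 13.92 in the WT untreated pool. The macrophage lysozyme Lyz2 read 7.40 after TNBS, 6.47 after ethanol and 8.27 in untreated WT mice.

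Antimicrobial and acute phase genes held 5 of the 95 genes at least 2-fold higher after TNBS. These proteins are made by epithelium and liver on contact with bacteria or cytokines. Of 25 on the array 21 were members, 18 higher and 3 lower, with a median of 0.29, and the 5 at least 2-fold higher stand beside 1.27% of all genes. Reg3g, a lectin that kills Gram-positive bacteria, read 8.63 in the WT TNBS pool, 6.09 in the WT ethanol pool and 4.95 in the WT untreated pool, a difference of 2.55. Hp, haptoglobin, which binds free haemoglobin, read 8.81, 6.38 and 4.57, a difference of 2.43. Its second probe differed by 1.24 on measured levels, with the ethanol level below background, so that value is not exact. Reg3b, a related lectin picked out once its values were known, read 13.95, 12.84 and 10.99, a difference of 1.11. These 3 genes stepped down in the same order, TNBS over ethanol over untreated. Another 2 measured differences above 1 were those of Reg3a (1.13) and of the lectin Itln1, which was below background after ethanol and is given as at least 1.16-fold higher. Saa3 and Saa1, serum amyloid genes chosen after their values were seen, read 8.79 and 12.76 after TNBS and 8.79 and 12.72 after ethanol. The Reg3 genes and Pla2g2a are also expressed in small intestine, and the part of the small-intestinal transcripts in their values was not tested.

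Several of these genes were far higher in both enema pools than in the untreated pool, more than they differed between TNBS and ethanol. On measured levels, both enema pools were at least 2-fold above the untreated WT pool for 47 of all members (0.628%), some of them below background in 1 or more pools. Counting only genes above background in both enema pools, with the lowest detected level in place of an untreated level below it, left 35 members (0.468%). Among them were 4 of 21 antimicrobial and acute phase genes (Reg3b, Lrg1, S100a8 and Slpi), 1 of 6 neutrophil markers, S100a8, and 2 of 11 STAT3 targets, Socs3 and Lrg1. The lists overlap, so S100a8 and Lrg1 are each counted under more than 1 list. Lrg1, an acute phase glycoprotein, read 9.28 in the WT TNBS, 8.97 in the WT ethanol and 6.44 in the WT untreated pool. Socs3, the feedback inhibitor of STAT3, read 8.79, 8.26 and 6.42. Clca4b, a chloride channel regulator of the epithelium, read 11.65, 11.24 and 7.16. In each the 2 enema pools lay within 0.52 of each other, and the untreated pool stood apart. These comparisons with the untreated pool carry the Xist difference given above, and what part it has in them was not tested.

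**Figure D3:**
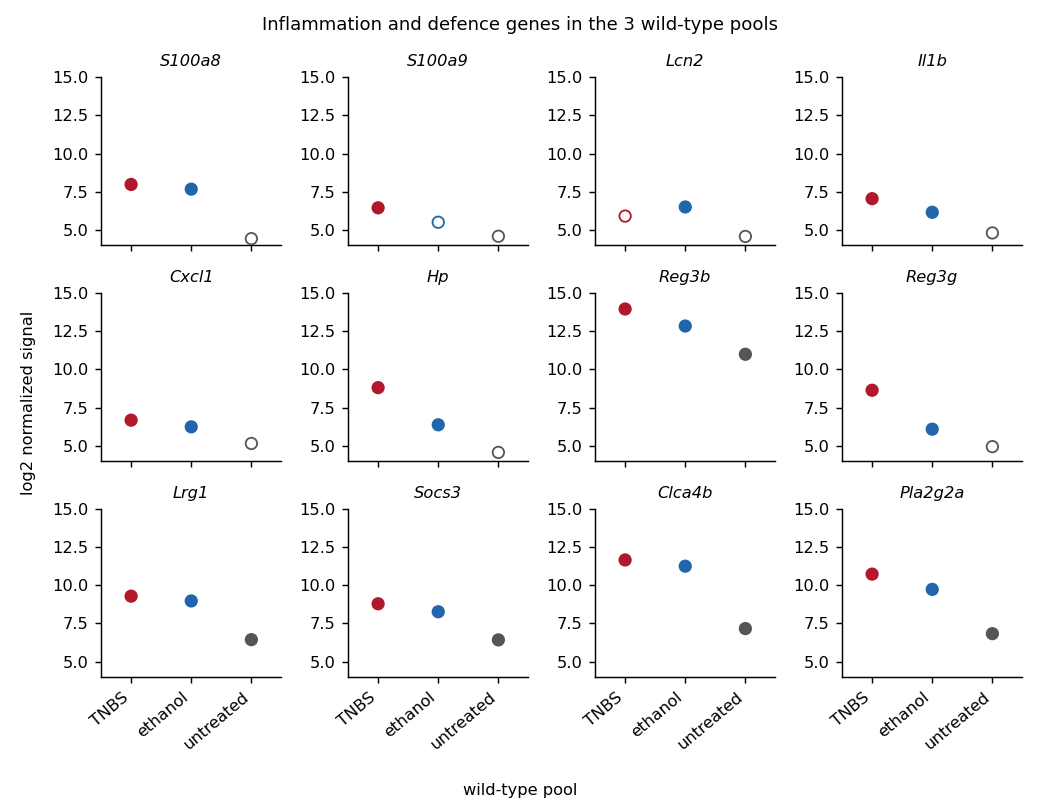
Log2 normalized signal (vertical axis, the same range in every panel) of 12 inflammation and defence genes in the WT TNBS, WT ethanol and WT untreated pools (horizontal axis), 1 pool of 5 mice per point, with open points below background. S100a8, Lrg1, Socs3 and Clca4b are high in both enema pools, and Hp, Reg3g and Reg3b step down between the TNBS, ethanol and untreated pools. The 12 genes were chosen after their values were seen.

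Signalling and antigen presentation genes stayed near the median gene. The 12 detected NF-kB subunits and feedback targets had a median of 0.01 (6 higher, 6 lower), the 5 MHC class II genes −0.04, the 13 MHC class I genes 0.06 and the 10 cytokine receptors 0.05, with 0 genes 2-fold apart. Beside 1.27% of all genes at least 2-fold higher and 0.134% lower, a count of 0 does not set such short lists apart. STAT3 and SOCS targets had a median of 0.20. Of 18 interferon response genes 14 were higher and 4 lower (median 0.15), and 1 passed 2-fold. This was Ifi27l2a, which interferon induces and whose product sits in mitochondria, with 8.62 in the WT TNBS pool, 7.31 in the WT ethanol pool and 6.83 in the WT untreated pool.

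Muscle genes were higher in the WT TNBS pool. Smooth muscle forms the muscularis mucosae and the outer muscle coat, and a mucosal preparation can carry either. Actg2, the actin of enteric smooth muscle, read 11.74 in the WT TNBS, 9.90 in the WT ethanol and 9.06 in the WT untreated pool, a difference of 1.84. Acta2, smooth muscle alpha actin, read 11.66, 10.53 and 10.33, a difference of 1.13. Its 2 other probes differed by 1.47 and 1.63 on measured levels. Both were below background in the ethanol pool, so these values are not exact. The intermediate filament protein Synm was higher by 1.39 and Myh11, the smooth muscle myosin, chosen after its values were seen, by 1.08. Of 21 smooth muscle genes on the array 11 were members, 4 of them at least 2-fold higher, beside 1.27% of all genes. Of the 11, 10 were higher and 1 lower, with a median of 0.76. The exception was Csrp1, a muscle LIM protein, above background in the ethanol pool alone at 6.01, against 4.67 in the WT TNBS pool, at least 1.07-fold lower. Their summed level was 13.52 in the WT TNBS, 12.56 in the WT ethanol and 12.53 in the WT untreated pool, and it was higher still in the KO enema pools, at 14.42 after TNBS and 14.70 after ethanol.

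Genes of skeletal muscle, a list added after the values were seen, went with them at lower levels. Acta1, skeletal muscle actin, read 8.34 in the WT TNBS pool, 6.39 in the WT ethanol pool and 6.59 in the WT untreated pool, a difference of 1.95. Pvalb, the calcium buffer of fast fibres, read 6.62 in the WT TNBS pool and was below background in the other WT pools, at least 1.80-fold higher than after ethanol. Atp2a1, the calcium pump of fast fibres, Tnnc2 and Tnnt3, troponin chains, were at least 2.37-fold, 2.31-fold and 1.61-fold higher. Of 36 such genes on the array 13 were members, 6 of them through the TNBS pool alone, which fixes the direction of these 6. On measured levels 7 of the 13 were at least 2-fold higher, beside 1.27% of all genes. The 7 detected in both pools had a median of 0.18.

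Adipocyte and haemoglobin genes also stood higher after TNBS. Adipoq, the fat cell hormone adiponectin, read 9.15 in the WT TNBS pool, 7.10 in the WT ethanol pool and 6.93 in the WT untreated pool, a difference of 2.05. Car3, a carbonic anhydrase abundant in fat and muscle, read 10.48, 8.31 and 7.83, a difference of 2.17. Its second probe differed by 2.11 on measured levels, with the ethanol level below background, so that value is not exact. Thrsp, a regulator of fat synthesis, was at least 3.40-fold higher. For all 3 the ethanol and untreated pools were close and the TNBS pool stood above them. All 9 adipocyte members were higher (median 0.99, or 0.87 over the 7 detected in both pools). Of the 9, 4 were at least 2-fold higher, beside 1.27% of all genes. Fabp4, the fatty acid binding protein of fat cells, was not above background in either pool. Haemoglobin had another order: Hba-a1, the alpha chain, read 11.19 in the WT TNBS pool, 9.39 in the WT ethanol pool and 11.81 in the WT untreated pool, and Hbb-bs, a beta chain, 11.33, 9.63 and 11.95. Here the ethanol pool was the low one and TNBS lay near the untreated level. Beta-globin probes may read several of these near-identical genes.

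Connective tissue genes were higher by less. Of 18 detected matrix remodelling genes 17 were higher and 1 lower (median 0.41, or 0.39 over the 13 detected in both pools). Of these 18, 4 were members through the TNBS pool alone and 1 through the ethanol pool alone, which fixes their direction. Lox, Loxl1 and Loxl2, named below, were all members through the TNBS pool alone. Of 13 fibroblast and stroma genes 12 were higher and 1 lower (median 0.42, or 0.18 over the 11 detected in both pools). Loxl1, which cross-links elastin, read 7.53 in the WT TNBS pool, 5.72 in the WT ethanol pool, where it was below background, and 6.39 in the WT untreated pool, at least 3.38-fold higher than after ethanol. The related cross-linking enzymes Lox and Loxl2 were at least 1.52-fold and 1.43-fold higher. Vim, vimentin of mesenchymal cells, read 9.64, 8.65 and 9.01, a difference of 1.00, and the collagen-binding Dcn 10.23, 9.33 and 10.10, a difference of 0.90. For Vim and Dcn, and for Loxl1, the ethanol pool was the lowest of the 3 and not the untreated pool. Timp1, an inhibitor of matrix proteases, was higher by 0.81, and Ptgis, the prostacyclin synthase of vessels and smooth muscle, at least 3.08-fold. Stromal and muscle genes stood higher in the same pool, and their part in each other's values was not tested.

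Among heat shock genes 3 small chaperones stood apart from the rest. Hspb8 read 8.36 in the WT TNBS pool, 6.66 in the WT ethanol pool and 6.61 in the WT untreated pool, a difference of 1.70. Cryab, alpha B crystallin, read 7.72, 6.28 and 5.87, a difference of 1.44, and Hspb1 8.41, 7.08 and 7.19, a difference of 1.33. All 3 belong to the small heat shock proteins, which hold unfolded proteins and are abundant in muscle. The other 10 of 13 detected genes lay between −0.30 and 0.23, including the co-chaperones Bag3 (10.30 after TNBS and 10.25 after ethanol) and Dnajb1 (10.77 and 10.83) and the large chaperone Hsph1 (9.86 in both), chosen after their values were seen. The list's median was 0.05. Hspb1 and Hspb8 are shown to set their promoters beside this split, from RefSeq (GRCm38.p6), with Hspb1 at chr5:135887669-135887968 on the + strand and Hspb8 at chr5:116422815-116423114 on the − strand. Capitals mark GAANNTTC, which reads the same on both strands and is the core of the heat shock element.
Hspb1: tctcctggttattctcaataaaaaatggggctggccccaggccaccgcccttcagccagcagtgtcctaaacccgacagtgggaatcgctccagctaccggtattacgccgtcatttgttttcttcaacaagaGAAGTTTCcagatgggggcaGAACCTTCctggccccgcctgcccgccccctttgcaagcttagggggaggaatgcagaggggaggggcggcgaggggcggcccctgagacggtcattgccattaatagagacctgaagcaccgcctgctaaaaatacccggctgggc
Hspb8: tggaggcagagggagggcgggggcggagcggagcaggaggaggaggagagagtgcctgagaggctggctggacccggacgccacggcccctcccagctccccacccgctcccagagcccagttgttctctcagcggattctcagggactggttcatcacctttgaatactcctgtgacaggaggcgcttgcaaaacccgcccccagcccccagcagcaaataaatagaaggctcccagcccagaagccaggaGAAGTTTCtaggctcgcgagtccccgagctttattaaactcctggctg
The motif stood 2 times in Hspb1, at positions 134 and 154, and once in Hspb8, at position 253. It was in 7 of the 11 list members with an entry, against 7.86% of all promoters, so it also stood before genes that were alike in both pools. The Defa31 window held it once, apart from the marked letters.

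Metabolic and clock lists had medians that differed little from that of all genes, while single genes stood further apart. Genes of cholesterol and fatty acid synthesis were higher for 19 of 24 and lower for 5 (median 0.22), led by Scd1, which desaturates fatty acids and is also abundant in fat, with 10.64 in the WT TNBS pool, 9.78 in the WT ethanol pool and 9.75 in the WT untreated pool. Fasn, fatty acid synthase, was higher by 0.76 and Hmgcs1, of the mevalonate pathway, by 0.39. Clock genes were lower for 10 of 14 (median −0.17): the output factor Dbp read 9.60, 10.21 and 11.56 in these pools and the repressor Nr1d1 7.51, 8.11 and 9.14, while Arntl, the clock activator that Nr1d1 represses, read 7.26, 6.39 and 6.57. A second probe of Nr1d1 differed by −0.34 between the TNBS and ethanol pools. Dbp and Nr1d1 were lowest after TNBS and highest in untreated mice, and Arntl was highest after TNBS. The sources used here do not give the hour of sampling. Glucocorticoid-responsive genes were lower for 11 of 14 (median −0.23), and the 1 member at least 2-fold apart was higher: Hsd11b1, the enzyme that activates glucocorticoids, read 7.35 in the WT TNBS pool, 6.33 in the WT ethanol pool and 6.33 in the WT untreated pool, a difference of 1.02. Xenobiotic genes were lower for 20 of 29 (median −0.17), with the bilirubin-conjugating enzyme Ugt1a1 at least 1.70-fold lower, and higher for 9, among them Cyp2e1 and the cytochrome P450 Cyp4f14, at 0.72. NRF2-linked antioxidant genes were lower for 26 of 35 by little (median −0.05). Oxidative phosphorylation, translation, cell cycle and endoplasmic reticulum stress lists had medians of −0.01, −0.03, 0.02 and 0.06.

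Genes lower after TNBS were few and dim. Of the 10 at least 2-fold lower, 8 were below background in the TNBS pool and 0 had another detected probe. The other two, above background in both pools, were Rbm3, a cold-inducible RNA-binding protein, with 9.56 in the WT TNBS, 10.59 in the WT ethanol and 9.69 in the WT untreated pool, and Parp12, an interferon-inducible ADP-ribosyltransferase, with 6.68, 7.75 and 8.02. For Rbm3 the ethanol pool stood above both others. For Parp12 the TNBS pool stood below both others. Amy2a5, pancreatic amylase, read 5.91 after TNBS, 7.06 after ethanol and 5.48 in untreated WT mice, at least 2.22-fold lower after TNBS. Lor, loricrin of squamous epithelium, and Cd24a, a surface glycoprotein of progenitor cells, were at least 1.21-fold and 1.16-fold lower, and the deacetylase gene Sirt1 at least 1.33-fold. Tlr2, a receptor for bacterial lipoproteins, read 8.54, 9.45 and 9.78, a difference of −0.91.

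Hoxd genes recurred among the 20 lowest. Hox genes encode factors that record position along the body axis, and the last Hoxd genes mark the hind end of the gut. Hoxd10 read 5.69 in the WT TNBS pool, 6.80 in the WT ethanol pool and 7.16 in the WT untreated pool, at least 1.85-fold lower after TNBS. Hoxd13 was at least 1.41-fold lower, and Hoxd12, above background in both pools, read 5.92 and 6.80. Over all 15 detected Hox cluster genes, a list added after the values were seen, 12 were lower and 3 higher (median −0.24). Hoxb13, the brightest of them and a marker of hindgut, read 11.59 after TNBS, 11.48 after ethanol and 11.13 in untreated mice, a difference of 0.11.

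**Figure D4:**
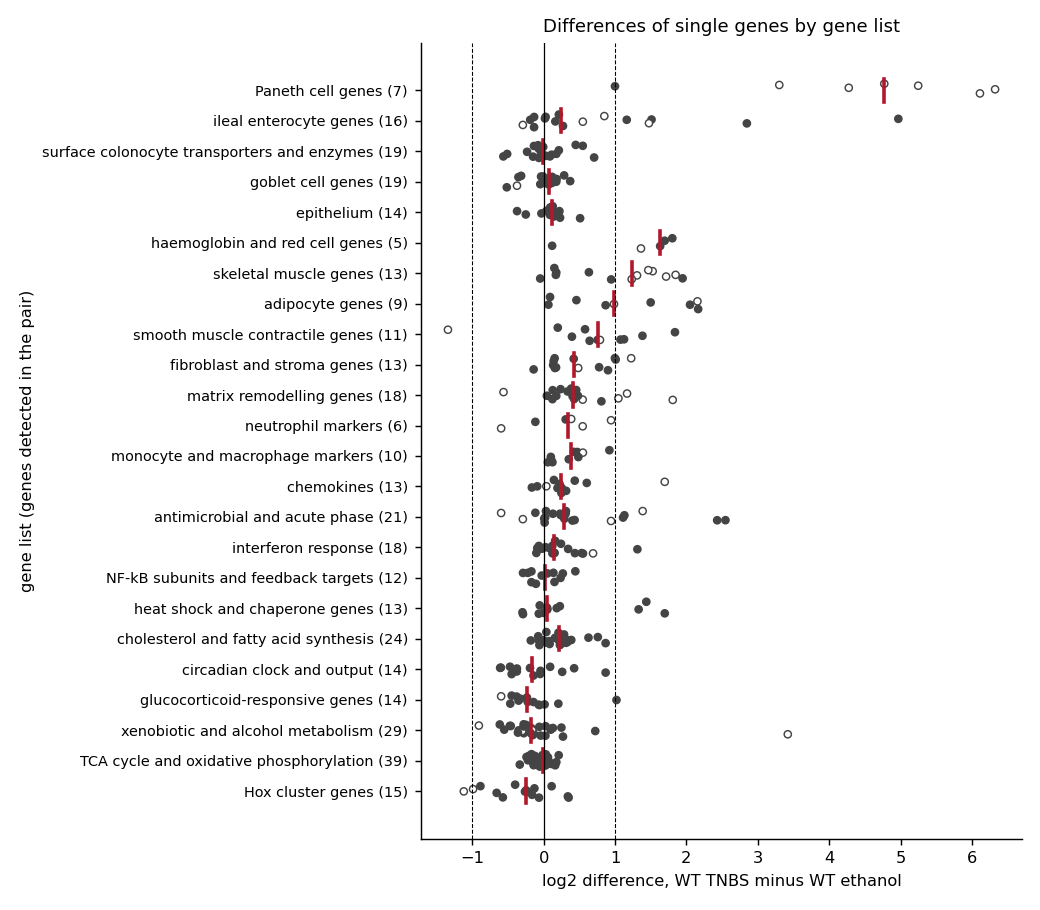
Log2 difference of WT TNBS minus WT ethanol (horizontal axis) of each detected gene in 24 gene lists (rows, number of genes in brackets). Filled points were detected in both pools and open points in 1 pool, red bars are medians and dashed lines mark 2-fold. The Paneth cell median is 4.77, with 6 of the 7 genes detected in the TNBS pool alone. The lists of colonic epithelium, NF-kB targets and oxidative phosphorylation centre near 0.

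The same contrast in Foxo4 KO mice shares no array with the WT pair. Among 8740 genes detected there, 221 (2.53%) stood 2-fold or more above the ethanol level after TNBS and 141 (1.61%) as far below it. Of the 95 genes higher in the WT pair, 65 were also higher in the KO pair, 41 of them at least 2-fold, and 8 were at least 2-fold lower. Of the 10 lower genes 3 were also lower, 0 of them 2-fold. Small-intestinal genes recurred: Defa3 read 13.43 in the KO TNBS and 8.01 in the KO ethanol pool, and Fabp6 12.18 and 7.75. Without any enema, in the KO untreated pool, Defa3 read 8.96 and Fabp6 8.48. Both genes were above background in all 3 KO pools and lowest in the KO ethanol pool. The 7 Paneth cell members had a KO median of 5.41, beside 4.77 in the WT pair. Of these 7, 6 were members through the WT TNBS pool alone, which fixes their direction in the WT pair. Haemoglobin genes also went the same way, with a KO median of 1.31. Muscle genes did not: Acta1 read 5.92 in the KO TNBS and 8.98 in the KO ethanol pool, and smooth muscle genes had a KO median of −0.34. Neutrophil and acute phase genes that were dim or alike in the WT pair were high in the KO TNBS pool. S100a8 read 11.25 in the KO TNBS pool and 4.68, below background, in the KO ethanol pool, and Il1b read 10.46 and 5.34, the second again below background. Lrg1 read 10.76 in the KO TNBS and 7.52 in the KO ethanol pool, a difference of 3.24, beside 0.31 in the WT pair. The ethanol pools differed as well: S100a8 read 4.68 in KO and 7.67 in WT mice, and Lrg1 7.52 in KO and 8.97 in WT mice. Xist read 7.52 in the KO TNBS pool, above background, and 5.56 in the KO ethanol pool, below it, and its part in the KO values was not tested. Differences between the genotypes were not tested, and they rest on the KO TNBS array that stood apart.

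**Figure D5:**
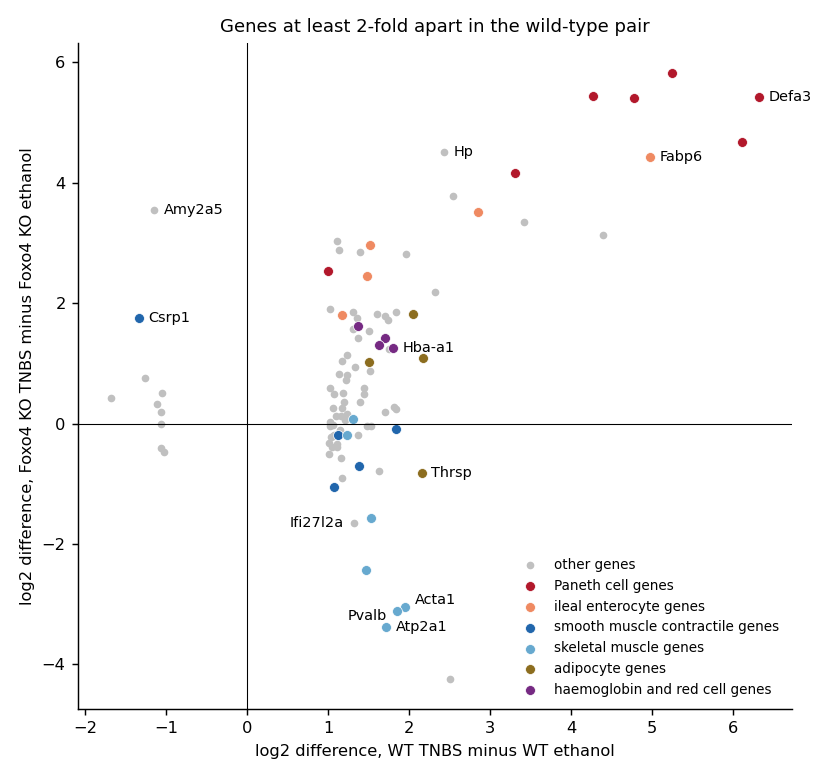
Log2 difference of TNBS minus ethanol in the Foxo4 KO pair (vertical axis) against that in the WT pair (horizontal axis) for the 105 genes at least 2-fold apart in the WT pair, with members of 6 gene lists in colour. Paneth cell and ileal genes lie high on both axes, while Acta1, Pvalb and Atp2a1 of skeletal muscle lie below 0 in the KO pair.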

How the data were processed

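Colonic mucosa RNA of 6 mouse pools was measured on 6 Illumina arrays. The deposited unnormalized table holds the mean bead signal as an intensity without background subtraction, and a detection score. Per the file headers the score is a p-value, but its values go up with signal, and here it is taken as 1 minus p. The deposited normalized table holds intensity values that were quantile normalized by the authors, on the evidence of their common distribution, and it carries the probe identifiers. The sources used here name no image software. Both tables were joined by matching signal profiles over the arrays, within a log2 distance of 0.05 and with a runner-up no nearer than 2 times the distance of the best match. This joined 46598 of 46632 probes, and 7951 of 8098 checkable Entrez numbers matched, against 1 after shuffling.

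The neqc function of limma 3.58.1 (R 4.3.3) corrected background from detection p, added an offset of 16, applied quantile normalization and returned log2 values. Probes with 1 gene symbol were kept (29958; 10 had several and 16630 none), and the probe with the highest mean stands for its gene. Folds from values with an offset understate changes of dim genes. Samples were grouped by their titles, 1 pool per group, so no test was run, and their number limits the precision of every value. Intervals that need replicates cannot be given. A simulated array was made from the WT ethanol array with small random noise, and only its bright probes were followed. Probes set apart by 2 (log2) were read at 1.92 and −1.91 in the median, and none of 4592 unchanged probes was 2-fold apart. Variation between pools was not simulated and dim probes were not followed, so this gives no rate of false calls for the counts above. Of probes set apart by 1, only 8% of the higher and 28% of the lower ones were read at least 2-fold apart.

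Named genes were the 20 highest and 20 lowest members and up to 4 of each list with the largest difference, gene models skipped. The members, the lists and the alternatives were chosen with earlier results of these data known. Alternatives changed the background correction, the offset, the scaling, the arrays normalized, the source of values, the detection filter and the probe rule. RefSeq promoters were matched by symbol, for 33 of the 40 highest and lowest genes. Python 3.11.15, pandas 2.3.3, scipy 1.17.1, matplotlib 3.10.9 and Biopython 1.88 were used.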

Additional observations from a re-analysis of the deposited data

Results flagged for a closer look

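The difference of TNBS minus ethanol was at least 2-fold one way in the WT pair and at least 2-fold the other way in the Foxo4 KO pair for 10 genes, 8 higher and 2 lower in the WT pair, on measured levels of which 7 genes had 1 or more below background. Each value rests on 1 pool, and the difference between the pairs was not tested. The 5 that the naming rule covers are given here. Acta1, skeletal muscle actin, had −3.06 in the KO pair and 1.95 in the WT pair, and Pvalb, the calcium buffer of fast fibres, had −3.12 in the KO pair and 1.85 in the WT pair. Ifi27l2a, an interferon-inducible gene, had −1.65 in the KO pair and 1.31 in the WT pair. The other 2 were lower in the WT pair: Amy2a5, pancreatic amylase, had 3.55 in the KO pair and −1.15 in the WT pair, and Csrp1, a muscle LIM protein, had 1.75 in the KO pair and −1.34 in the WT pair. Pvalb was below background in the KO TNBS and WT ethanol pools, Amy2a5 in the KO ethanol and WT TNBS pools, and Csrp1 in the WT TNBS pool, so the differences of these 3 are not exact.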

How the results depend on the processing

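The count of genes at least 2-fold apart depended on how dim signals were treated. Against 95 higher and 10 lower genes, there were 49 and 1 without background correction, 51 and 0 with an offset of 50, 48 and 1 with the authors' values, and 52 and 2 among genes detected on both arrays. Median scaling gave 95 and 6, with the median of all genes at 0.02. The other alternatives (the 2 WT arrays normalized alone, no detection filter, the mean of all probes, and normalization without the KO TNBS array, added after the data were seen) gave 90 to 99 higher and 9 to 10 lower genes. All 58 named genes at least 2-fold apart kept their direction under each alternative that gave them a value, and 37 to 58 stayed at least 2-fold apart where all 58 had one. Over all 226 genes followed, 37 to 42 moved by more than 0.34 (log2) without background correction, with an offset of 50 or with the authors' values, and 6 to 7 of 51 list medians moved by more than 0.1, the Paneth cell median to between 3.60 and 3.61. Over genes detected on both arrays the Paneth cell median was 1.00, and that of pancreatic acinar genes was 0.09 in place of −0.12. Among genes detected on both arrays 30 had a value and all 30 stayed 2-fold apart. The cause of the other shifts was not tested. Signal over background limits the lower genes most, since 8 of 10 were below background in the TNBS pool. No paired analysis was possible because each group is 1 pool and the numbers in the labels count arrays.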
